A study of Rattus norvegicus with 6 samples.

Results

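The miR-126 family and the pair miR-221 and miR-222 are microRNAs (miRNAs) best known from the endothelium, the cell layer that lines blood vessels. Their probes were followed here in hearts of rats with and without experimental colitis. The members were chosen by name as every miRNA probe on the array with the stem rno-miR-126a, rno-miR-126b, rno-miR-221 or rno-miR-222, whichever arm of the hairpin it matched. This gave 7 of the 761 miRNAs on the array, 3 of miR-126 and 4 of the miR-221 and miR-222 pair. Total RNA of heart tissue from adult Sprague Dawley rats, labelled in 1 colour with Cy5, was hybridised to 1 array per animal. The control group held 3 animals without treatment (controls 9, 10 and 11), and the other group held 3 animals given dextran sulfate sodium, an agent that inflames the colon (DSS 13, 14 and 16). In the study's methods DSS was given at 3% in the drinking water for 5 days in each of 4 cycles, separated by 9 days of plain water, so that the colitis was chronic, and the hearts show only what had changed at the end of that course. The comparison asks whether colitis altered these miRNAs in the heart.

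An miRNA is cut from a hairpin whose arms, 5p and 3p, can each give a mature strand. The mature strand guides the Argonaute complex to messenger RNAs mainly through its seed, bases 2 to 8. The miR-126 hairpin lies in an intron of Egfl7, a gene for a protein that endothelial cells secrete, and miR-126-3p is known for repressing Spred1 and Pik3r2, inhibitors of VEGF signalling, and the adhesion molecule Vcam1. miR-221 and miR-222 are processed from neighbouring hairpins and have the same seed. They are known for repressing Kit, the stem cell factor receptor, and Cdkn1b, the p27 inhibitor of the cell cycle, and they are made by vascular smooth muscle and other cells as well as by endothelium.

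The probes' targets are listed because the shared and unshared bases decide which members can be told apart. All 7 member names matched a mature sequence in RefSeq, and positions are on the GRCr8 build. Sequences run 5′ to 3′ with the seed in capitals.
rno-miR-126a-3p, chr3:29813219-29813240, plus strand: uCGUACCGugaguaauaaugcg
rno-miR-126a-5p, chr3:29813182-29813202, plus strand: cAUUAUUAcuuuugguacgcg
rno-miR-126b, chr3:29813177-29813198, minus strand: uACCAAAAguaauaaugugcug
rno-miR-221-3p, chrX:6023246-6023268, plus strand: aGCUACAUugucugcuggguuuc
rno-miR-222-3p, chrX:6022682-6022702, plus strand: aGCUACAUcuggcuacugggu
The miR-126a arms have unrelated seeds, and rno-miR-126b is read from the opposite strand, where it overlaps rno-miR-126a-5p by 17 bases. The RefSeq gene Egfl7 spans the miR-126 hairpin. The 3p strands of miR-221 and miR-222 are identical over the first 8 bases and are 6 edits (substituted, inserted or deleted bases) apart over their whole length, and no other miRNA on the array had their seed. Their hairpins lie side by side on the same strand, miR-222 before miR-221. No protein-coding gene overlaps them, though RefSeq genes for long non-coding RNA do overlap this stretch. The GC content of the 4 strands that could be tested was 45.5% for rno-miR-126a-3p, 38.1% for rno-miR-126a-5p, 47.8% for rno-miR-221-3p and 52.4% for rno-miR-222-3p, against a median of 47.8% for all miRNAs tested.

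Detection was called per array and needed 2 or more of the 4 repeat spots to exceed background by over 3 standard deviations of the empty spots. Empty spots also exceeded this limit, 23.4% of them on control 10 and 32.1% on DSS 14, against 1.27% to 10.8% on the others. Detection was therefore less strict on control 10 and DSS 14. rno-miR-126a-3p, rno-miR-221-3p and rno-miR-222-3p were detected on 6 of 6 arrays, and rno-miR-126a-5p was detected on 3 control arrays and 1 DSS array. The remaining members, rno-miR-126b, rno-miR-221-5p and rno-miR-222-5p, were detected on 0 arrays, with a mean brightness of the 4 spots between 0.439 and 0.783 of the detection limit, and they remained undetected with a limit of 2 or 5 standard deviations. Thus, 4 of 7 members could be tested, but rno-miR-126a-5p had a detected level in only 1 DSS heart. Brightness was then put on a log2 scale and normalized between arrays, and all miRNAs with 3 or more detections among the arrays, 282 in number, entered 1 limma fit.

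**Figure D1:**
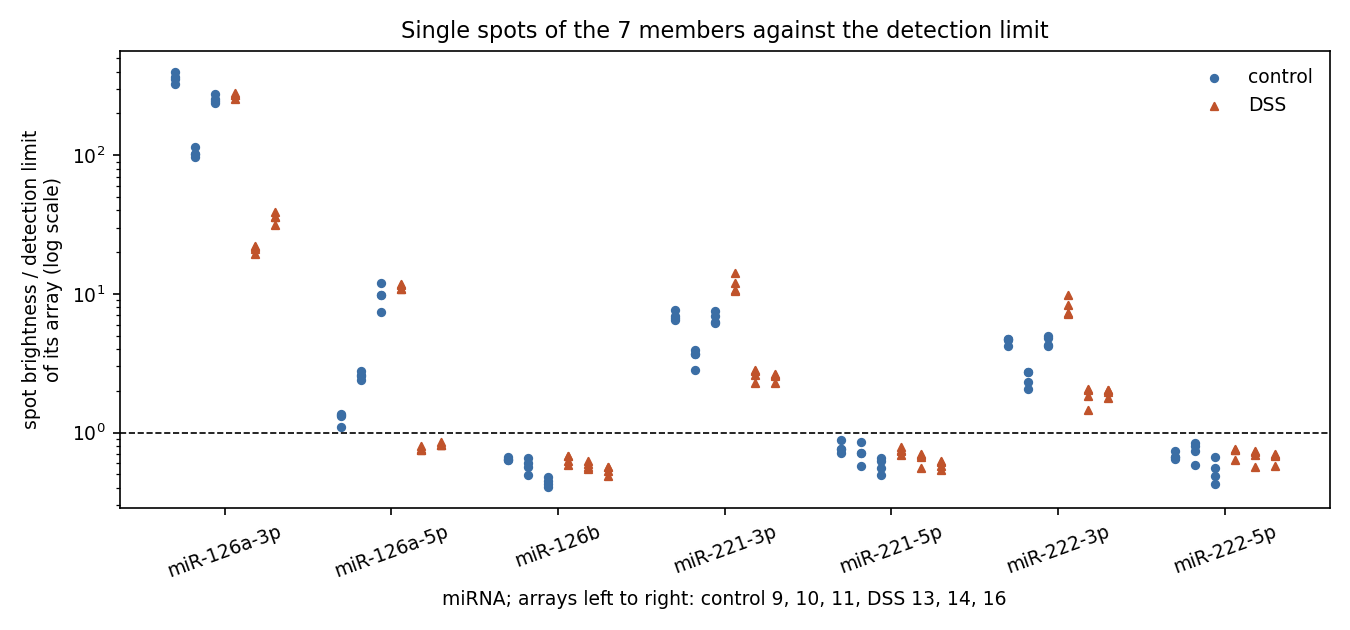
Brightness of each single spot of the 7 members divided by the detection limit of its array, on a log axis, with 4 spots per array, blue circles for control and orange triangles for DSS arrays, and the limit as a dashed line. Spots of rno-miR-126b, rno-miR-221-5p and rno-miR-222-5p lie below the limit on all 6 arrays, and rno-miR-126a-5p falls below it on DSS 14 and DSS 16.

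The heart arrays as a whole differed widely between the groups. Of the 282 miRNAs tested, 139 passed an adjusted p of 0.05 (49.3%), 59 higher and 80 lower in DSS hearts, so a change was common and a call on any one miRNA is read against that share. The split depended on the scaling: of 178 called with spike-in scaling 10 were lower, of 143 with 5S rRNA scaling 14, and of 119 without normalization 38. No miRNA was called without DSS 16 (129 at an unadjusted p under 0.05) or with the methods' t-test (155 unadjusted). The median log2 difference of all miRNAs tested was -0.064. All 11 probes for spiked-in control RNA were dimmer in the DSS group, by 1.23 on the log2 scale on average. A scale set on them thus moves every miRNA up in DSS hearts relative to controls. The arrays moved up were DSS 14 and DSS 16, where rno-miR-221-3p went from 8.49 and 8.25 without normalization to 9.41 and 8.89. On DSS 13 it went from 9.40 to 9.26, and on controls 9, 10 and 11 from 8.70, 9.01 and 9.13 to 8.37, 8.50 and 8.54. The median log2 difference of all miRNAs tested went from 0.36 to 1.31. As the label heart implies, cardiomyocyte miRNAs were detected, with miR-1-3p, miR-133a-3p, miR-133b-3p and miR-499-5p on 6 of 6 arrays, although miR-208a-3p was detected on 1 array and miR-208b-3p on 0. No label ties arrays to batches, and each group holds separate animals.

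rno-miR-126a-3p, the guide strand of the endothelial hairpin, was lower in DSS hearts. Its normalized log2 signal was 14.30, 13.53 and 13.85 in controls 9, 10 and 11, and 13.27, 12.17 and 12.38 in DSS 13, 14 and 16. Each DSS heart lay below each control heart, with DSS 13 near the lowest control and DSS 14 and DSS 16 more than 1 log2 unit under it. The mean was 13.89 ± 0.39 (SD, n = 3) in controls and 12.61 ± 0.58 (SD, n = 3) after DSS. This was a log2 difference of -1.28 (SE 0.35, 95% interval -2.11 to -0.46), or 41.1% of the control signal, with an adjusted p of 0.0229 in limma. The 4 spots of the probe varied by 4.32% to 8.96% (coefficient of variation) within an array, so the spread came from between the arrays. The call was lost when control 9, control 11, DSS 14 or DSS 16 was left out, where the adjusted p was 0.0614, 0.0573, 0.0706 and 0.0873. The difference itself stayed between -1.61 (without DSS 13) and -1.07 (without DSS 14). The call was also lost with spike-in scaling (-0.76, adjusted p = 0.102), 5S rRNA scaling (adjusted p = 0.0600), the authors' processed values (0.0525), no filter on dim probes (0.0672) and the methods' t-test (0.0728), all with the signal lower in DSS hearts.

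rno-miR-126a-5p, the other arm of the same hairpin, was scattered in both groups. The log2 signal was 7.18, 8.82 and 9.56 in controls 9, 10 and 11, and 8.77, 6.41 and 6.75 in DSS 13, 14 and 16. The groups overlapped, since control 9 was dim and DSS 13 was close to control 10. Before normalization, the mean brightness of its 4 spots was 73.3 on control 9, not far above the limit of 57.4 on that array, while DSS 14 and DSS 16, at 110.4 and 98.7, lay under their limits of 144 and 120. The values of those DSS hearts therefore hold background signal and cannot be read as levels. The mean was 8.52 ± 1.22 (SD, n = 3) against 7.31 ± 1.28 (SD, n = 3), a log2 difference of -1.21 (SE 0.80, 95% interval -3.12 to 0.70) that did not pass the test (adjusted p = 0.237, limma). Leaving out 1 array moved it from -1.94 (without DSS 13) to -0.69 (without control 11), with no adjusted p under 0.0612.

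The arms of the hairpin could be set side by side only where both were detected. The gap, as rno-miR-126a-3p minus rno-miR-126a-5p, was 7.12, 4.71 and 4.29 log2 units in controls 9, 10 and 11, and 4.49 in DSS 13. It mixes the response of 2 probes, so only a change in it would have a meaning. In DSS 14 and DSS 16 the gaps of 5.76 and 5.63 are set by background signal on the 5p probe. The change over all 6 arrays, -0.077 (exact permutation p = 0.9, 2-sided), includes those values, and whether the arms changed alike cannot be read from it.

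**Figure D2:**
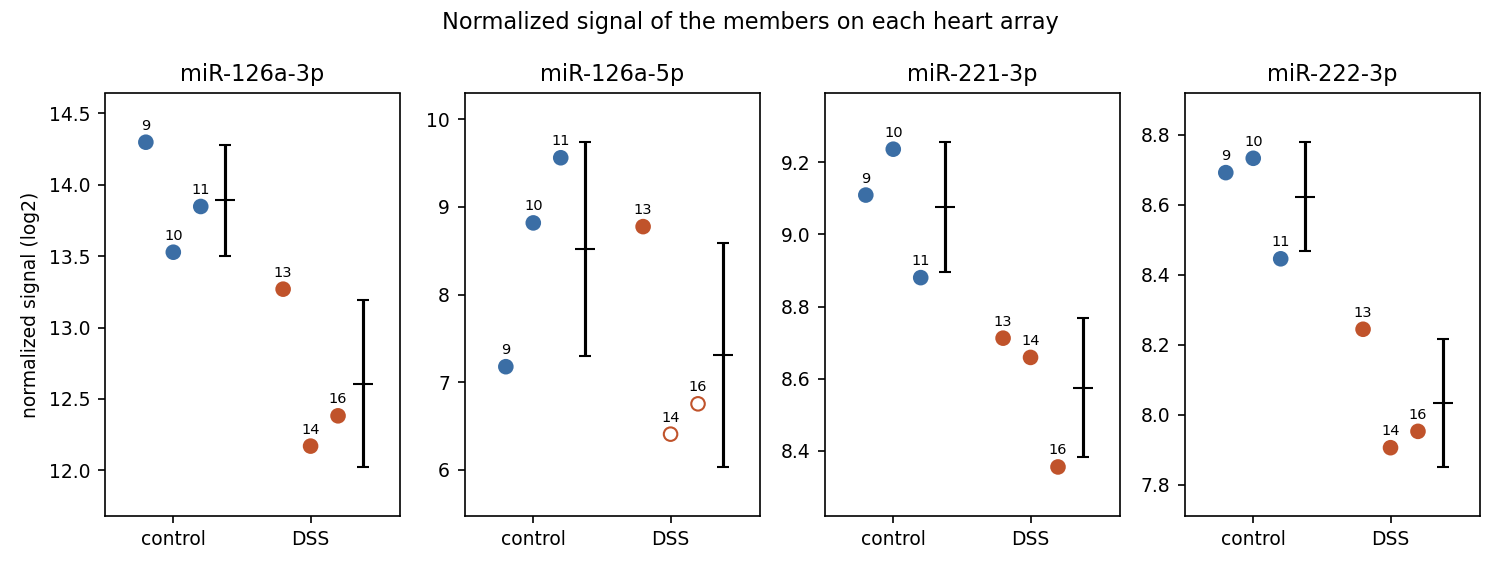
Normalized log2 signal of the 4 testable members on each array (points numbered by animal, blue for control and orange for DSS), with the mean and SD of each group of 3 as bars. Open points are not above the detection limit. The DSS points lie below the control points for rno-miR-126a-3p, rno-miR-221-3p and rno-miR-222-3p (the latter pair turns higher with spike-in or 5S rRNA scaling), and the groups overlap for rno-miR-126a-5p.

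rno-miR-221-3p had less signal in DSS hearts with the normalization used and more when scaled to spiked-in RNA or 5S rRNA, and none of these differences passed the test. Its normalized log2 signal was 9.11, 9.24 and 8.88 in controls 9, 10 and 11, and 8.71, 8.66 and 8.36 in DSS 13, 14 and 16. The groups did not overlap, but the gap between control 11 and DSS 13 was narrow. The mean was 9.08 ± 0.18 (SD, n = 3) in controls and 8.58 ± 0.19 (SD, n = 3) after DSS, a log2 difference of -0.50 (SE 0.19, 95% interval -0.96 to -0.04), or 70.8% of the control signal. The adjusted p was 0.0669 in limma (0.0368 unadjusted). It was called lower in 5 of 27 alternatives, among them the authors' processed values (-0.97, adjusted p = 0.0356) and quantile normalization (-0.61, adjusted p = 0.0393).

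rno-miR-222-3p, its cluster partner, was lower in DSS hearts with the normalization used, and higher when scaled to spiked-in RNA or 5S rRNA. The normalized log2 signal was 8.69, 8.73 and 8.45 in controls 9, 10 and 11, and 8.24, 7.91 and 7.95 in DSS 13, 14 and 16. The groups did not overlap, and DSS 13 was again the DSS heart nearest to the controls. The mean was 8.62 ± 0.16 (SD, n = 3) in controls and 8.03 ± 0.18 (SD, n = 3) after DSS, a log2 difference of -0.59 (SE 0.19, 95% interval -1.03 to -0.15), or 66.5% of the control signal, with an adjusted p of 0.0372 in limma. Without DSS 13 the adjusted p was 0.0289, and without any other single array the call was lost, with adjusted p values of 0.0830 (control 9), 0.114 (control 10), 0.0600 (control 11), 0.109 (DSS 14) and 0.121 (DSS 16). Of 27 alternatives it was called lower in 12 and higher in 1, spike-in scaling.

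The direction for rno-miR-221-3p and rno-miR-222-3p rests on the scaling between arrays. Before normalization, the mean spot brightness of rno-miR-221-3p was 398, 542 and 541 in controls 9, 10 and 11, and 658, 376 and 301 in DSS 13, 14 and 16. That of rno-miR-222-3p was 263, 378 and 369 in controls, and 453, 266 and 233 in DSS hearts. DSS 13 thus had the brightest spots of the 6 arrays for both probes, and it was also the array with the most miRNAs detected (365, against 223 to 283 on the others). Scaled to the spiked-in RNA the log2 differences became 0.71 (adjusted p = 0.0741) for rno-miR-221-3p and 0.79 (adjusted p = 0.0499) for rno-miR-222-3p, and scaled to 5S rRNA they became 0.19 and 0.26. These scales moved the median of all miRNAs tested to 1.31 and 0.78. A scaling that shifts all miRNAs of an array alike cannot move a member relative to that median, so these 2 scales and 3 others of the kind give 1 value each, -2.07 for rno-miR-126a-3p, -1.07 for rno-miR-126a-5p, -0.59 for rno-miR-221-3p and -0.52 for rno-miR-222-3p. Under the other alternatives the difference from the median was -1.67 to -0.96 for rno-miR-126a-3p, -2.25 to -0.65 for rno-miR-126a-5p (background signal on 2 DSS arrays), -0.91 to -0.31 for rno-miR-221-3p and -0.98 to -0.46 for rno-miR-222-3p.

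**Figure D3:**
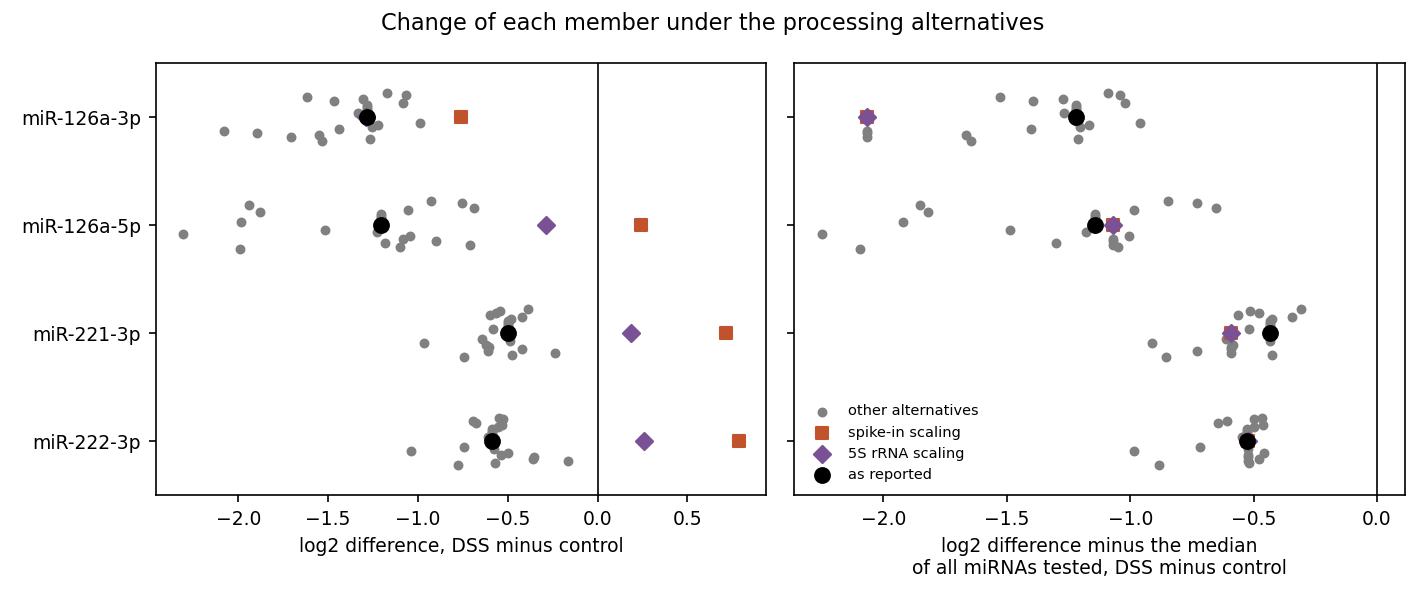
Log2 difference, DSS minus control, of the 4 testable members as reported (black) and under each processing alternative (grey, with orange squares for spike-in and purple diamonds for 5S rRNA scaling), as measured on the left and after subtracting the median of all miRNAs tested on the right. On the left rno-miR-221-3p and rno-miR-222-3p cross 0 under these 2 scales, and rno-miR-126a-5p does so under spike-in scaling. On the right all points lie below 0, and the scalings that shift whole arrays coincide there by construction.

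The cluster partners were compared in the same way. The gap between rno-miR-221-3p and rno-miR-222-3p was 0.42, 0.50 and 0.43 log2 units in controls 9, 10 and 11, and 0.47, 0.75 and 0.40 in DSS 13, 14 and 16. Its change was 0.089 (exact permutation p = 0.7, 2-sided), so no difference between the partners was detectable with this normalization. With quantile normalization the change was -0.25 (exact permutation p = 0.1, the smallest possible). Whether the probes, whose targets have 8 bases in common from the 5′ end, pick up some of the same signal was not tested. The root mean square difference between their centred patterns over the 6 arrays was 0.119 log2 units, the smallest among the 6 pairs of tested members. The log2 difference of rno-miR-126a-3p was larger in size than either of theirs, but the gaps to rno-miR-221-3p and rno-miR-222-3p changed by -0.78 and -0.70 (exact permutation p = 0.2 each). All 6 pairs of members were compared, and no pair had an adjusted p under 0.6, while the 3 pairs with rno-miR-126a-5p hold its background values. With 3 arrays against 3, the exact test cannot give a p below 0.1.

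As a group, 2 of the 4 tested members passed the test, both lower in DSS hearts (rno-miR-222-3p turned higher with spike-in or 5S rRNA scaling), against 28.4% of all miRNAs tested that were called lower. For 3 of the 4, each DSS array lay below each control array, against 34.8% of all miRNAs tested. With 4 members, these counts do not set the group apart from the rest of the array. By size, 13.5% of the miRNAs tested had a log2 difference as low as that of rno-miR-126a-3p or lower, while the value was 32.6% for rno-miR-222-3p and 35.1% for rno-miR-221-3p. The exact permutation p of the log2 difference was 0.1 for each of these 3 members, the smallest possible, and 0.2 for rno-miR-126a-5p (2-sided).

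Other miRNAs followed the same course over the 6 arrays, and the 3 closest to each member were found by the root mean square difference of their centred log2 signals. For rno-miR-126a-3p these were miR-22-3p (0.172), miR-195-5p (0.173) and miR-29a-3p (0.177), against a median of 0.761 over all miRNAs tested. They changed by -1.45, -1.44 and -1.26 on the log2 scale, each called in limma (adjusted p = 0.0161, 0.0170 and 0.0213). Because neighbours were chosen on the arrays of both groups, a like difference tends to follow from the choice and is no separate evidence. The same holds for the neighbours of the other members. With spike-in scaling all 3 lost the call (-0.88, -0.68 and -0.69, adjusted p = 0.0533, 0.135 and 0.116), as did miR-195-5p with 5S rRNA scaling (adjusted p = 0.0556). miR-22 is abundant in heart muscle, miR-195 belongs to the miR-15/16 family, and miR-29 is known for repressing collagens.

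For rno-miR-126a-5p no miRNA came as close. miR-374-5p (0.507), miR-10a-5p (0.562) and let-7a-1-3p (0.626) were nearest, against a median of 1.25. miR-374-5p and miR-10a-5p were, like rno-miR-126a-5p, dim on control 9 and DSS 14, and their log2 differences of -0.33 and -0.28 were not called (adjusted p = 0.698 and 0.771, limma), while let-7a-1-3p changed by -1.17 (adjusted p = 0.0314), a call lost without normalization (-0.80, adjusted p = 0.264), with the 75th percentile of all probes (-1.17, adjusted p = 0.0559) and with 5S rRNA scaling (-0.37, adjusted p = 0.577), with the sign turned by spike-in scaling (0.15, adjusted p = 0.748). miR-10a is itself known from endothelium.

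The pattern of rno-miR-221-3p was nearest to those of miR-378a-3p (0.0586), miR-378b (0.0788) and miR-107-3p (0.0792), with a median of 0.518 over all miRNAs tested. None of these passed the test with the normalization used, with log2 differences of -0.49, -0.47 and -0.48 (adjusted p = 0.0857, 0.0996 and 0.0558, limma). All 3 were called lower with quantile normalization, the 75th percentile of all probes and LOWESS over detected miRNAs. With spike-in scaling their differences turned positive (0.32, 0.36 and 0.40), without a call. The pattern of rno-miR-222-3p was nearest to those of miR-324-5p (0.12), miR-503-3p (0.123) and miR-342-3p (0.124), with a median of 0.513, and all 3 were called lower, with differences of -0.69, -0.78 and -0.48 (adjusted p = 0.0213, 0.0213 and 0.0440, limma) that turned positive with spike-in or 5S rRNA scaling, as for rno-miR-222-3p. All 3 also lost the call without normalization and with the 75th percentile of detected miRNAs. The distance from rno-miR-222-3p to rno-miR-221-3p, 0.119, was of the same size. Points of all these patterns share the arrays and the normalization.

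**Figure D4:**
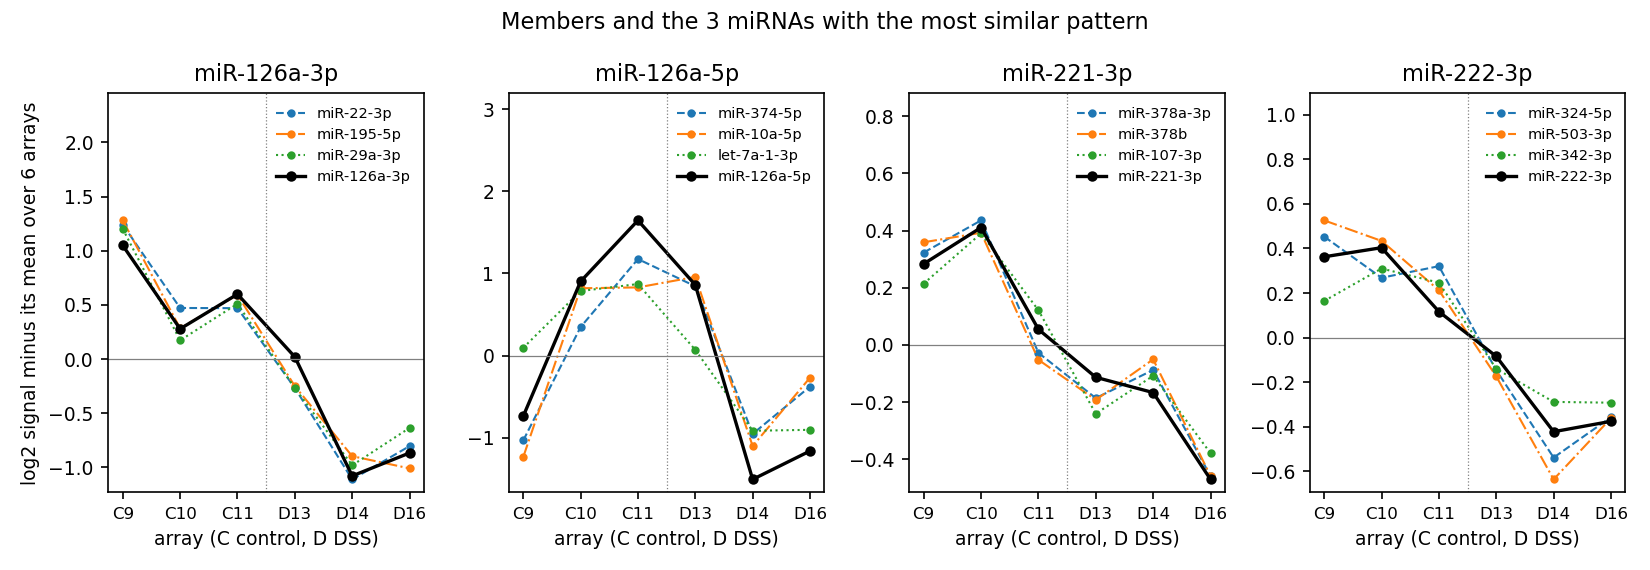
Log2 signal minus its own mean over the 6 arrays for each testable member (black) and the 3 miRNAs with the most similar pattern (coloured, broken lines), with control arrays C9 to C11 left and DSS arrays D13 to D16 right of the dotted line. Lines only join the values of 1 miRNA. rno-miR-126a-5p and its neighbours miR-374-5p and miR-10a-5p are low on control 9 and DSS 14.

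Other miRNAs of endothelium and vessel growth did not move as 1 block. Of 22 such miRNAs on the array (the members left out), 15 were tested, of which 6 were called lower, 0 higher and 9 were not called. In limma 9 of the 15 had an unadjusted p under 0.05, 2 of them higher, beside 165 of all 282 miRNAs tested. This count does not set the list apart from the rest of the array. The median log2 difference of the 15 was -0.55, beside -0.064 for all miRNAs tested, and 6 of 15 stands beside the 28.4% called lower overall. The largest falls were in miR-19b-3p and miR-20a-5p of the miR-17/92 cluster, at -1.55 (SE 0.40, adjusted p = 0.0213) and -1.19 (SE 0.28, adjusted p = 0.0182), and in miR-27a-3p, at -1.20 (SE 0.39, adjusted p = 0.0409). However, miR-19b-3p was detected on only 4 of 6 arrays. Its mean of 6.07 in DSS hearts was at the level of the undetected rno-miR-221-5p (6.07 to 6.26). The size of its fall therefore holds background signal. miR-27b-3p, miR-34a-5p and miR-130a-3p were lower by smaller amounts, with differences of -0.92, -0.89 and -0.67. By contrast, miR-92a-3p, also of the miR-17/92 cluster, and miR-23b-3p had log2 differences above 0, at 1.11 and 1.32, which missed the threshold (adjusted p = 0.0501 and 0.0550). miR-210-3p, the miRNA known for its induction by low oxygen, had a difference of 0.063 (adjusted p = 0.833). The other arm of its hairpin, miR-210-5p, was not on the list and was called higher (1.52, adjusted p = 0.0229, limma). With spike-in scaling 0 were called lower and 5 higher, and with 5S rRNA scaling 0 and 3, in runs added after seeing the data. The 3 with the sign turned by spike-in scaling were miR-20a-5p, miR-34a-5p and miR-130a-3p among the 6 called lower here.

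**Figure D5:**
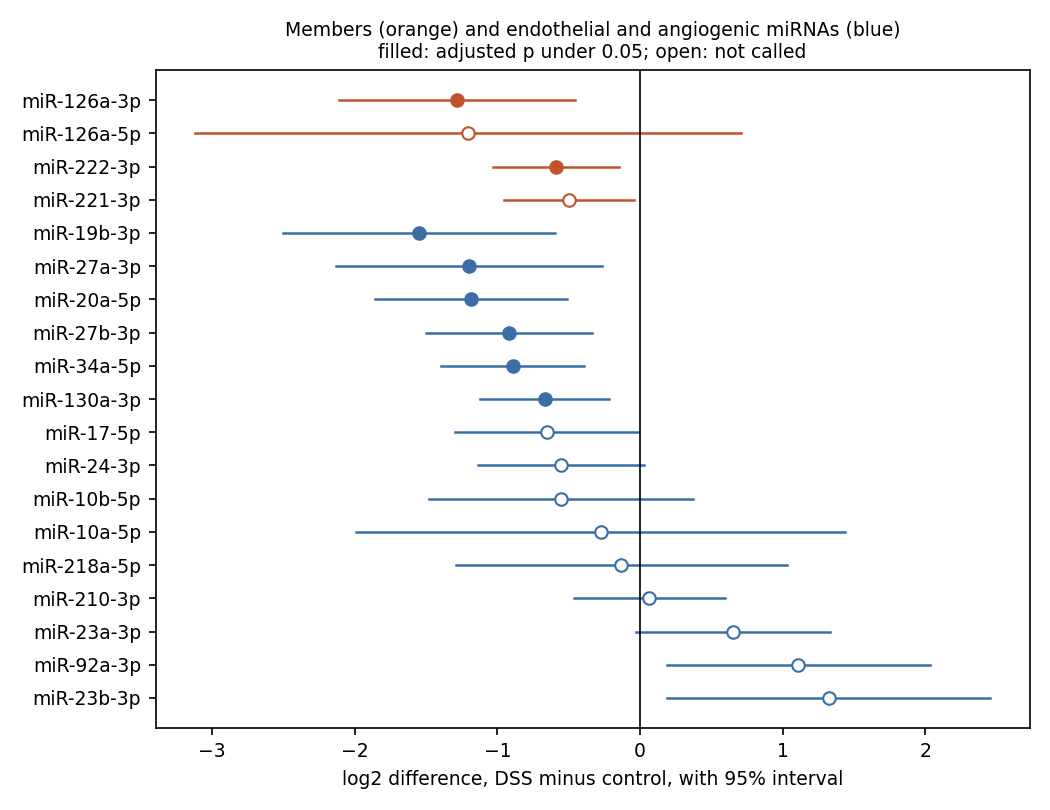
Log2 difference, DSS minus control, with its 95% interval for the 4 testable members (orange) and the 15 tested miRNAs of endothelium and vessel growth (blue). Filled points have an adjusted p under 0.05 in limma. All filled points lie below 0 with the normalization used, while spike-in scaling turns the sign of rno-miR-222-3p, miR-20a-5p, miR-34a-5p and miR-130a-3p and 5S rRNA scaling that of rno-miR-222-3p. Here miR-23b-3p and miR-92a-3p have the highest values without being called.

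In RNA from whole tissue, fewer endothelial cells and less miRNA per cell cannot be told apart, and other cell types can move with the same groups. The summed normalized signal of 6 leukocyte miRNAs was 3223 to 6117 in controls and 10765 to 15066 in DSS hearts, without overlap. Such a split was common, since the groups did not overlap for 66.3% of all miRNAs tested. Sums were taken with the normalization used only. Of 4 leukocyte miRNAs tested, miR-150-5p, miR-146a-5p and miR-155-5p were higher (1.59, 1.42 and 0.65) and the myeloid miR-223-3p was lower (-1.35), while miR-142-3p and miR-142-5p, which define blood cells, were each detected on 1 array. The brightest of these 4 was miR-150-5p, with log2 means of 11.57 in controls and 13.15 in DSS hearts. Only 3 arrays detected miR-155-5p, and its control mean of 6.24 was at the level of the undetected rno-miR-221-5p (6.07 to 6.26). Its difference and its call therefore hold background signal. The sum of the smooth muscle pair was 11724 to 18222 in controls and 8230.4 to 8447 in DSS hearts, also without overlap. There miR-145-5p was called lower (-0.98, adjusted p = 0.0170), and miR-143-3p had a difference of -0.47 (adjusted p = 0.0910). The sums overlapped for the cardiomyocyte list (41556 to 64817 in controls and 38959 to 94832 in DSS hearts), where 4 of 6 were tested and miR-1-3p was higher (3.11) and miR-499-5p lower (-2.09). They also overlapped for the fibroblast list (5596 to 10716 and 7358 to 10782), where miR-214-3p was higher (1.12) and miR-199a-5p and miR-199a-3p lower (-1.58 and -0.75), with a difference of 0.78 for miR-21-5p that was not called. In the erythroid list (3078 to 6392 and 4033 to 5841), miR-451-5p and miR-144-5p were lower (-2.53 and -0.94), miR-486 was higher (2.36) and miR-144-3p was detected on 0 arrays. Likewise, miR-144-5p was detected on only 3 arrays, with a DSS mean of 6.13 at that background level, so its difference and its call hold background signal too. Among the marker miRNAs called here, spike-in scaling turned the signs of miR-223-3p, miR-199a-3p and miR-144-5p. Of the smooth muscle pair, 2 of 2 differences were below 0 here and 1 of 2 with spike-in scaling. For the cardiomyocyte list it was 3 of 4 here and 2 of 4 with spike-in scaling. Under both spike-in and 5S rRNA scaling 0 miRNAs of the smooth muscle, fibroblast and leukocyte lists were called lower, so that miR-145-5p, miR-199a-5p, miR-199a-3p and miR-223-3p lost their calls. Calls in the higher direction were lost too. Of the leukocyte list, 3 were called higher here, miR-155-5p with its background values among them, but 1 without normalization or with the 75th percentile of all probes. Of the fibroblast list, 1 was called higher here, but 0 with plain background subtraction, quantile normalization, the 75th percentile of detected miRNAs or the authors' values. The part of these cell types in the signal of the miR-126, miR-221 and miR-222 members was not tested.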

How the data were processed

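The authors deposited, for each of 6 arrays, the scanner intensity of 3968 spots, 3044 of them for 761 miRNAs with 4 spots each, and a table of their own background-subtracted, LOWESS-normalized signal per probe, used here as an alternative. Arrays were made and hybridised by a service provider, with probes for miRBase miRNAs; scanner, slide and scan batch are not given in the sources used here. Background was corrected with normexp (offset 50), the log2 values of the 4 spots were averaged, and arrays were normalized by cyclic LOWESS over all miRNA probes (span 0.7, 3 iterations). Background, from 35.4 to 95.4 between arrays, was taken as the median brightness over the lowest 25% of miRNA spots, and the SD came from 632 empty spots. A detected spot also had a pixel coefficient of variation under 0.5. miRNAs with 3 or more detections among the 6 arrays (282) were fitted with limma 3.58.1 in R 4.3.3 (lmFit, eBayes, Benjamini-Hochberg), without covariates. Single values were compared by exact permutation over 20 arrangements. Scripts were tested on simulated data. The precision is limited by the number of arrays.

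Named miRNAs were all 7 members, the 3 nearest patterns to each tested member, of the endothelial and angiogenic list the 3 called with the largest change in each direction, and the cell type markers; the remaining miRNAs of the first list were named after their values were seen. Members and lists were chosen with earlier results of these data known. Alternatives covered background, normalization, detection, test, array weights and left-out arrays.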

Additional observations from a re-analysis of the deposited data

How the results depend on the processing

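rno-miR-126a-3p was lower in DSS hearts in 27 of 27 alternatives and called in 17. It lost the call with spike-in scaling (-0.76, adjusted p = 0.102), 5S rRNA scaling (-1.29, 0.0600), the authors' processed values (-1.26, 0.0525), no filter on dim probes or a mean signal above 32, which kept the same probes (-1.28, 0.0672), and the methods' t-test (-1.28, 0.0728). rno-miR-126a-5p was lower in 25 of 26, was called with array weights only (-1.99, 0.0232), and had the opposite sign with spike-in scaling (0.24, 0.748). It was not tested where detection on 6 arrays was required. rno-miR-221-3p was lower in 25 of 27 and passed the threshold with quantile normalization (-0.61, 0.0393), LOWESS over detected miRNAs (-0.62, 0.0286), the authors' values (-0.97, 0.0356), an offset of 16 (-0.64, 0.0476) and array weights (-0.58, 0.0274). It reversed with spike-in (0.71) and 5S rRNA scaling (0.19, 0.679). rno-miR-222-3p was lower in 25 of 27, called lower in 12 and called higher in 1. It lost the call with plain background subtraction (-0.78, 0.0527), no normalization (-0.16, 0.685), quantile normalization (-0.36, 0.147), the 75th percentile of detected miRNAs (-0.35, 0.458) or of all probes (-0.54, 0.0982), LOWESS over detected miRNAs (-0.50, 0.0535), detection on 6 arrays (-0.59, 0.0607) and the methods' t-test (-0.59, 0.0608), and reversed with spike-in (0.79, 0.0499) and 5S rRNA scaling (0.26, 0.562). With background values on the 5p probe included, the miR-126a arms changed their gap by 1.05 (exact permutation p = 0.4) in the authors' values and 0.45 (p = 0.9) with plain subtraction. That of miR-221-3p and miR-222-3p changed by -0.071 (exact permutation p = 0.2) without normalization and -0.25 (p = 0.1) with quantile normalization. The count of 139 miRNAs called became 74 with no filter or a mean signal above 32, and 0 with the methods' t-test (155 unadjusted). The cause of these moves was not tested.

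Leaving out 1 array gave differences of -1.61 to -1.07 for rno-miR-126a-3p, -0.69 to -0.52 for rno-miR-222-3p and 0 (without DSS 16, 129 unadjusted) to 142 (without DSS 13) miRNAs called, with 84, 121, 94 and 69 without control 9, control 10, control 11 and DSS 14. The median of all miRNAs tested moved by over 0.1 without normalization (to 0.36), with quantile normalization (0.12), plain subtraction (0.11), the 75th percentile of detected miRNAs (0.17), spike-in (1.31) and 5S rRNA scaling (0.78). No paired analysis was possible because animals of the groups share no number. No fit with slide or scan date as a block was made, since the files name neither. Dim probes such as rno-miR-126a-5p are limited by the background.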
